A study of Homo sapiens with 6 samples.

Results

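The genes described here are RGMA and 9 genes of the bone morphogenetic protein (BMP) pathway that it belongs to, 10 of the 63186 genes in the count table: the co-receptors RGMA and RGMB, their receptor NEO1, the BMP receptors BMPR1A and BMPR2, the ligand BMP4, and the pathway targets ID1, ID2, ID3 and SMAD6. They were chosen by symbol, after RGMA had been seen among the largest rises in the same comparison, so their differences between the groups are given below as a description. Where edgeR calls of the members are given or counted, alone or within a list, they describe as well and are no test of these genes. All 10 passed the filter on low counts, RGMA only through its knockdown libraries (it had 12, 9 and 5 counts in the controls). The data are gene-level read counts from 6 libraries of RBE, a long-established human cell line from a tumour of the bile ducts inside the liver (intrahepatic cholangiocarcinoma). In 3 libraries (si-Ctrl 1 to 3) the cells had received a control siRNA and in the other 3 (si-CHAF1A 1 to 3) siRNA against CHAF1A, the large subunit of chromatin assembly factor 1, which places histones on newly copied DNA. Cells for all 6 libraries were transfected with Lipofectamine 3000 at about 60% confluency and harvested 48 h later. No genetic change was made in either group, and the sources used here do not give the siRNA sequences. A single line under a transient knockdown limits the groups as a model.

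The libraries held 15643381 to 20918997 counts. CHAF1A itself stood at 51.0 to 59.8 CPM (counts scaled to library size, with TMM factors) in si-Ctrl and at 11.1 to 12.9 CPM in si-CHAF1A. Among the biliary and epithelial markers fixed for the line, 8 of 8 were tested, with a summed level of 4154 to 4817 CPM in si-Ctrl and 5360 to 5882 CPM in si-CHAF1A. Markers of leukocytes summed to under 1 CPM in every library. The fibroblast list (2 of 6 tested) summed to 8.66 to 11.8 CPM in si-Ctrl and 16.0 to 36.2 CPM in si-CHAF1A, with DCN and LUM at 0 counts in the control libraries and at 7 and 6 counts in the knockdown libraries, while PDGFRB went from a mean of 1.30 to 5.37 CPM. The library si-CHAF1A 1 stood apart in these markers, with 92 COL1A2 counts (3 and 1 in the other knockdown libraries, 1, 0 and 0 in the controls), 6 of the 7 DCN counts and COL1A1 at 23.4 CPM (11.3 and 11.8 CPM in the other knockdown libraries, 7.34 to 10.1 CPM in the controls). Without it the log2 difference between the groups was 5.05 for RGMA, -0.65 for RGMB, 0.18 for NEO1, 0.35 for BMPR1A, 0.59 for BMPR2, 0.56 for BMP4, 0.42 for ID1, -0.05 for ID2, 0.86 for ID3 and 0.17 for SMAD6, of which the SMAD6 call was lost. The hepatocyte list (1 of 8 tested) summed to 16.5 to 26.0 and 30.7 to 53.1 CPM, the endothelial list (2 of 4 tested) to 2.41 to 3.77 and 6.60 to 8.86 CPM, and the neuronal list (2 of 6 tested) to 11.2 to 12.8 and 10.1 to 11.9 CPM. Nearly all of the hepatocyte sum was SERPINA1 (means of 21.0 and 40.1 CPM), with ALB and the others under 1 CPM. In the endothelial list VWF went from a mean of 0.627 to 3.76 CPM and PECAM1 from 2.35 to 3.27 CPM, with CDH5 and KDR under 1 CPM. The part of these markers in the results was not tested. One library, si-Ctrl 2, lay apart from the other controls on the second principal component (-29.6 against 14.9 and 13.9), which carried 11.2% of the variance.

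BMPs are secreted dimers of the TGF-beta superfamily. They bring together type I and type II receptor kinases, which phosphorylate SMAD1, SMAD5 and SMAD9. These enter the nucleus with SMAD4 and switch on targets such as the ID genes and SMAD6, an inhibitory SMAD that feeds back on the pathway. Repulsive guidance molecules (RGMs) are membrane-anchored proteins first known from axon guidance. They bind BMP ligands as co-receptors and also bind neogenin, the product of NEO1. In the liver, BMP signalling helped by hemojuvelin, an RGM protein encoded by HJV, controls the iron hormone hepcidin.

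RGMA and RGMB went opposite ways, so the bases before their annotated start sites are shown. The RefSeq table (GRCh38.p14) has promoter windows for 10 of 10 members, 18 in all, of which 5 belong to RGMA and 3 to RGMB. The 3 windows printed here are 250 bases long, end at a start site and touch no exon annotated in GENCODE 29. The first is the outermost RGMA window (chr15:93089212-93089461, minus strand), the second the innermost RGMA window (chr15:93073157-93073406, minus strand, inside an intron of the longer RGMA transcripts) and the third the outermost RGMB window (chr5:98768382-98768631, plus strand). Capitals mark the dinucleotide CG, the target of DNA methylation.

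RGMA outermost start: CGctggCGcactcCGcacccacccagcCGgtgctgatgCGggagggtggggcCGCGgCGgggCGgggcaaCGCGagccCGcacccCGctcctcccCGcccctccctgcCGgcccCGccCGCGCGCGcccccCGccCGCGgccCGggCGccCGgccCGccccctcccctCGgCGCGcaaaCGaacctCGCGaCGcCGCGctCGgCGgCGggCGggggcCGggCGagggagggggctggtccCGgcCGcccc

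RGMA innermost start: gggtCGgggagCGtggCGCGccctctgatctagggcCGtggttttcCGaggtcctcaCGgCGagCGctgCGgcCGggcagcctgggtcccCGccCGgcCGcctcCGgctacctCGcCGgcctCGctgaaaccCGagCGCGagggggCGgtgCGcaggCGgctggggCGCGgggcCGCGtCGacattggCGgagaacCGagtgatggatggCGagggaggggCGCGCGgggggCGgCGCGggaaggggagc

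RGMB outermost start: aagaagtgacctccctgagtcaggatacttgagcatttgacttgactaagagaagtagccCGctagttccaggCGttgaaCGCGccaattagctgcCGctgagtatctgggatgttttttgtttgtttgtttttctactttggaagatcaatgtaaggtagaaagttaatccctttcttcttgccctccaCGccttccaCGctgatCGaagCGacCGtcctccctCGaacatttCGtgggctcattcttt

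The RGMA windows hold 44 and 38 CG dinucleotides and are 86.4% and 77.6% G or C. The RGMB window holds 12 and is 46.8% G or C, and the other RGMB windows hold 14 and 23 and are 66.4% and 67.2% G or C. Over all 35116 windows of the table the median was 11 CG dinucleotides and 58% G or C, and over the 16430 windows of tested genes it was 20 and 64.4%. Of all windows, 99.2% had fewer CG than the outermost RGMA window. The other RGMA windows ranged down to 3. Which start was used cannot be told from counts summed over a gene. The GC-rich SMAD-binding word GGCGCC, its own complement, was in 3 of the members' 18 windows (RGMA, BMPR2 and BMP4) and in 16.4% of all windows. In the outermost RGMA window it starts 106 bases before the start site. The SMAD word CAGAC, searched on both strands, was in 5 of the 18 windows and in 38.0% of all, and no match of one word overlapped one of the other in these windows.

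RGMA (ENSG00000182175, chromosome 15, 93035273 to 93089204, minus strand) was close to undetected in control cells and clearly present after CHAF1A knockdown. It had 12, 9 and 5 counts in si-Ctrl 1, 2 and 3, or 0.768, 0.455 and 0.287 CPM. In si-CHAF1A 1, 2 and 3 it had 241, 295 and 291 counts, or 14.3, 16.9 and 16.3 CPM. Every knockdown library was more than 14 CPM and every control library under 1 CPM, so the groups were far apart. The mean went from 0.503 ± 0.244 to 15.9 ± 1.37 CPM (SD, n = 3 each), a 31.5-fold difference, and the fitted log2 fold change (knockdown over control) was 4.99 (SE 0.22). More cells with RGMA RNA and more RGMA RNA per cell cannot be told apart in bulk libraries. The fold rests on 26 control counts in all: it was 5.37 on the log2 scale without si-Ctrl 1, 4.72 without si-Ctrl 3, and 4.72 with a prior count of 2, a small number added to the counts before the fold is taken. By size of the fitted rise RGMA was number 51 of the 15911 tested genes, a set that it entered through its knockdown counts.

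RGMB (ENSG00000174136, chromosome 5, 98768650 to 98798643, plus strand), the close relative of RGMA that also binds BMPs and neogenin, stood at 20.4, 20.3 and 20.8 CPM in the control libraries. After knockdown it stood at 12.9, 12.4 and 13.8 CPM. All 3 knockdown libraries were under all 3 controls, with means of 20.5 ± 0.268 and 13.0 ± 0.707 CPM (SD, n = 3 each), a log2 fold change of -0.65 (SE 0.10). RGMB was the only 1 of the 10 members whose knockdown libraries were all lower. An annotated antisense gene, RGMB-AS1, overlaps it and was at a log2 fold change of -0.26 (adjusted p = 0.348, edgeR). The sources used here do not give the strand setting of the counting, so reads of the pair cannot be told apart.

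Set per kilobase of annotated exon, so that genes can be compared, RGMA made up 1.86%, 1.12% and 0.690% of the summed RGMA and RGMB level in si-Ctrl 1, 2 and 3. In si-CHAF1A 1, 2 and 3 it made up 35.9%, 40.8% and 37.4%. The sum of both genes lay at 3.08 to 3.14 CPM per kb in the control libraries. It lay at 3.02 to 3.30 CPM per kb in the knockdown libraries. The means were 3.11 ± 0.0315 and 3.15 ± 0.143 (SD, n = 3 each), so with this length the ranges of the sum overlapped. The length used sets this result, so a constant total cannot be read from it. Without length, in CPM, the RGMA mean rose from 0.503 to 15.9. The RGMB mean fell from 20.5 to 13.0, the smaller change. With the length of the longest transcript, the fall of the RGMB mean was larger than the rise of the RGMA mean. The third gene of the family, HJV, had 0 counts over the control libraries and 6 over the knockdown libraries, and was not tested. Read counts do not give protein, and a gene's exon length here includes all annotated transcripts.

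**Figure D1:**
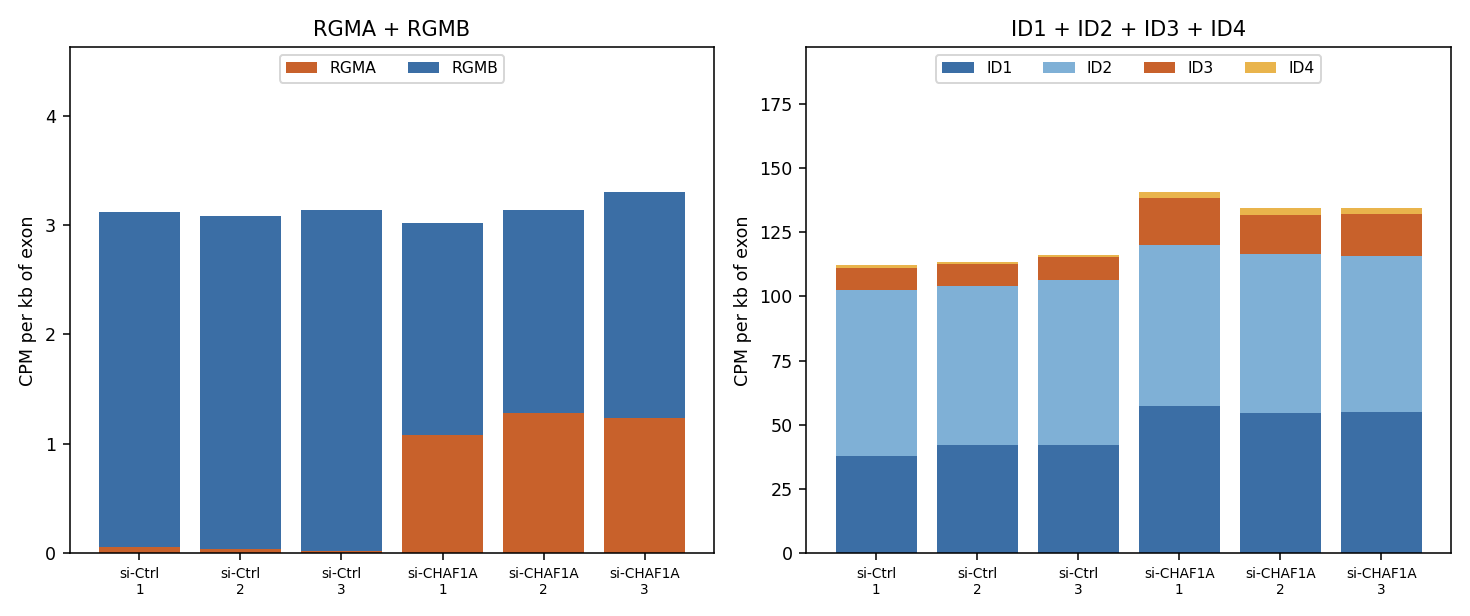
Stacked bars give, for each of the 6 libraries, the level in CPM per kb of annotated exon of RGMA and RGMB (left) and of the 4 ID genes (right). RGMA takes 35.9% to 40.8% of the left bars in the knockdown libraries and 0.690% to 1.86% in the controls. The height of the left bars lies between 3.02 and 3.30 CPM per kb. It depends on the exon lengths used, so a constant total cannot be read from it.

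NEO1 (ENSG00000067141, chromosome 15, 73051710 to 73305206) encodes neogenin, the receptor for RGMs and netrins. It was at 49.2, 52.1 and 53.6 CPM in si-Ctrl and at 58.3, 58.9 and 58.2 CPM in si-CHAF1A. The groups did not overlap, but the difference was small, with means of 51.7 ± 2.26 and 58.5 ± 0.345 CPM (SD, n = 3 each) and a log2 fold change of 0.18 (SE 0.07). It was the member with the smallest difference among the 9 whose groups were apart.

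The list of RGM and neogenin genes fixed for this report holds 16 genes, of which 10 were tested. Of these, 4 were higher and 3 lower in the quasi-likelihood test of edgeR (Benjamini-Hochberg adjusted p under 0.05 over all 15911 tested genes, the threshold used throughout), where 18.5% of all tested genes were higher, 19.3% lower and 37.8% either. Among the 7 that are not members, 3 were higher and 2 lower. NTN4, a netrin of basement membranes, fell 3.03-fold, from 112, 115 and 114 CPM to 37.9, 35.5 and 39.3 CPM (a log2 change of -1.60 with an SE of 0.07, adjusted p = 1.86e-10, edgeR). NTN1, the founding netrin and a ligand of neogenin and DCC, rose from 3.01 ± 0.387 to 6.29 ± 0.419 CPM (a log2 change of 1.06 with an SE of 0.17, adjusted p = 0.000171, edgeR). The 2 netrins therefore moved in opposite directions, as the 2 RGMs did. UNC5A, a netrin receptor, rose 1.37-fold (adjusted p = 0.00118, edgeR), and its relative UNC5B was at a log2 fold change of 0.24 (adjusted p = 0.359, edgeR). ARHGEF12, a guanine nucleotide exchange factor that acts downstream of RGMA and neogenin, fell 1.24-fold, from 179 ± 5.04 to 144 ± 2.50 CPM (adjusted p = 0.000831, edgeR). The protease FURIN, which processes BMP precursors and RGM proteins, rose 1.21-fold (adjusted p = 0.0196, edgeR), a call lost without si-CHAF1A 1, si-CHAF1A 2, si-Ctrl 1 or si-Ctrl 3. The related PCSK6 was at 33.0 CPM in both groups (adjusted p = 0.987, edgeR). DCC itself and UNC5C, UNC5D, NTN3 and TMPRSS6 were below the filter on low counts.

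Both receptor members stood higher after knockdown. BMPR2 (ENSG00000204217, chromosome 2, 202376936 to 202567751), the type II kinase dedicated to BMPs, was at 101, 88.0 and 99.8 CPM in si-Ctrl. It was at 137, 150 and 140 CPM in si-CHAF1A. The gap between the groups was wider than the spread inside either, with means of 96.3 ± 7.25 and 142 ± 7.16 CPM (SD, n = 3 each) and a log2 fold change of 0.56 (SE 0.07).

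BMPR1A (ENSG00000107779, chromosome 10, 86756601 to 86932838), a type I kinase that phosphorylates the BMP SMADs, was at 51.7, 39.3 and 47.0 CPM in si-Ctrl and at 54.2, 60.7 and 56.4 CPM in si-CHAF1A. The groups did not overlap, but si-Ctrl 1 and si-CHAF1A 1 lay close together. The log2 fold change was 0.31 (SE 0.09), from 46.0 ± 6.27 to 57.1 ± 3.30 CPM. It ranged from 0.21 to 0.40 when 1 library was left out.

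Of 13 tested BMP and TGF-beta receptor genes 4 were higher and 2 lower, with a median log2 fold change of 0.13, against a median of 0.00 over all tested genes. Among the 11 that are not members 2 were higher and 2 lower, or 36.4% called beside 37.8% of all tested genes. The higher ones other than the members were ACVRL1, a type I receptor for BMP9 and BMP10 (0.33, SE 0.12, adjusted p = 0.0364, edgeR), and the activin receptor ACVR1B (0.21, adjusted p = 0.0390, edgeR). The lower ones were TGFBR3, or betaglycan (-0.41, adjusted p = 0.0152, edgeR), and ACVR1C (-0.92, adjusted p = 0.0219, edgeR). These calls were thin: the number higher was 1 without si-CHAF1A 2 and 2 without si-CHAF1A 1, si-Ctrl 1 or si-Ctrl 3, and the number lower was 0 without si-CHAF1A 1, si-CHAF1A 2 or si-Ctrl 1. The other BMP type I receptor, ACVR1, was at 48.0 ± 1.32 and 45.7 ± 0.634 CPM (adjusted p = 0.487, edgeR). The type II receptors ACVR2A (-0.02) and ACVR2B (0.14), the AMH receptor AMHR2 (-0.25), the TGF-beta receptors TGFBR1 (0.13) and TGFBR2 (0.11), and the co-receptor ENG (0.48) did not pass either (edgeR adjusted p from 0.204 to 0.945). BMPR1B was not tested.

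BMP4 (ENSG00000125378, chromosome 14, 53949736 to 53958761), a secreted ligand of both receptors above, was at 14.3, 13.4 and 12.7 CPM in si-Ctrl and at 18.8, 19.4 and 20.4 CPM in si-CHAF1A. All knockdown libraries lay above all controls, with means of 13.5 ± 0.828 and 19.5 ± 0.799 CPM (SD, n = 3 each) and a log2 fold change of 0.53 (SE 0.10). Of 8 tested BMP ligand genes 6 were higher and 0 lower in the edgeR test (0 lower at an unadjusted p under 0.05, and 5 higher and 0 lower by DESeq2), with a median log2 fold change of 0.78. Without BMP4, 5 of 7 were higher, beside 18.5% of all tested genes. Among these, BMP8A (4, 19 and 10 counts in si-Ctrl) and GDF9 (9, 12 and 9) passed the filter only through their knockdown libraries. Their calls as higher are therefore no support for a rise of the ligands. The list has 10 further genes that were below the filter on low counts.

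GDF7 (chromosome 2, 20666664 to 20679245), a BMP ligand known from the dorsal neural tube, rose 1.97-fold, from 4.73, 3.84 and 5.28 CPM to 9.87, 9.13 and 8.25 CPM (a log2 change of 0.98 with an SE of 0.16, adjusted p = 0.000135, edgeR). BMP2 (chromosome 20, 6767664 to 6780280), the nearest relative of BMP4, rose 1.75-fold, from 4.16 ± 0.174 to 7.27 ± 0.443 CPM (a log2 change of 0.80 with an SE of 0.15, adjusted p = 0.000519, edgeR). BMP8B rose 1.70-fold, from 6.53 ± 0.753 to 11.1 ± 1.53 CPM (adjusted p = 0.000580, edgeR). The other higher genes, picked from their values, were BMP8A and GDF9, at 0.597 and 0.566 CPM on average in si-Ctrl, and both calls were lost without some libraries. BMP8A is a near-identical copy of BMP8B, so the assignment of reads between them is uncertain. The ligands short of the threshold, also picked from their values, were BMP6 (-0.22, adjusted p = 0.190, edgeR) and BMP7 (0.26, adjusted p = 0.580, edgeR).

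Of 12 tested genes for extracellular BMP antagonists and modulators 2 were higher and 2 lower, or 33.3% called beside 37.8% of all tested genes (1 to 3 higher when 1 library was left out, 1 without si-CHAF1A 1), with a median of -0.04. NOG, or noggin, which binds BMPs and blocks them, rose 1.51-fold, from 4.92 ± 0.572 to 7.41 ± 1.17 CPM (adjusted p = 0.00901, edgeR), a call lost without si-CHAF1A 1. NBL1, another secreted antagonist, rose from 37.9 ± 4.06 to 51.7 ± 4.59 CPM (log2 fold change 0.44, adjusted p = 0.00134, edgeR). CRIM1, a membrane protein that holds BMPs back at the cell surface, fell from 676 ± 46.6 to 492 ± 2.66 CPM (log2 fold change -0.46, adjusted p = 3.77e-05, edgeR). FSTL3, which binds activins, fell from 99.0 ± 14.5 to 63.2 ± 4.16 CPM (-0.65, adjusted p = 5.32e-05, edgeR).

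**Figure D2:**
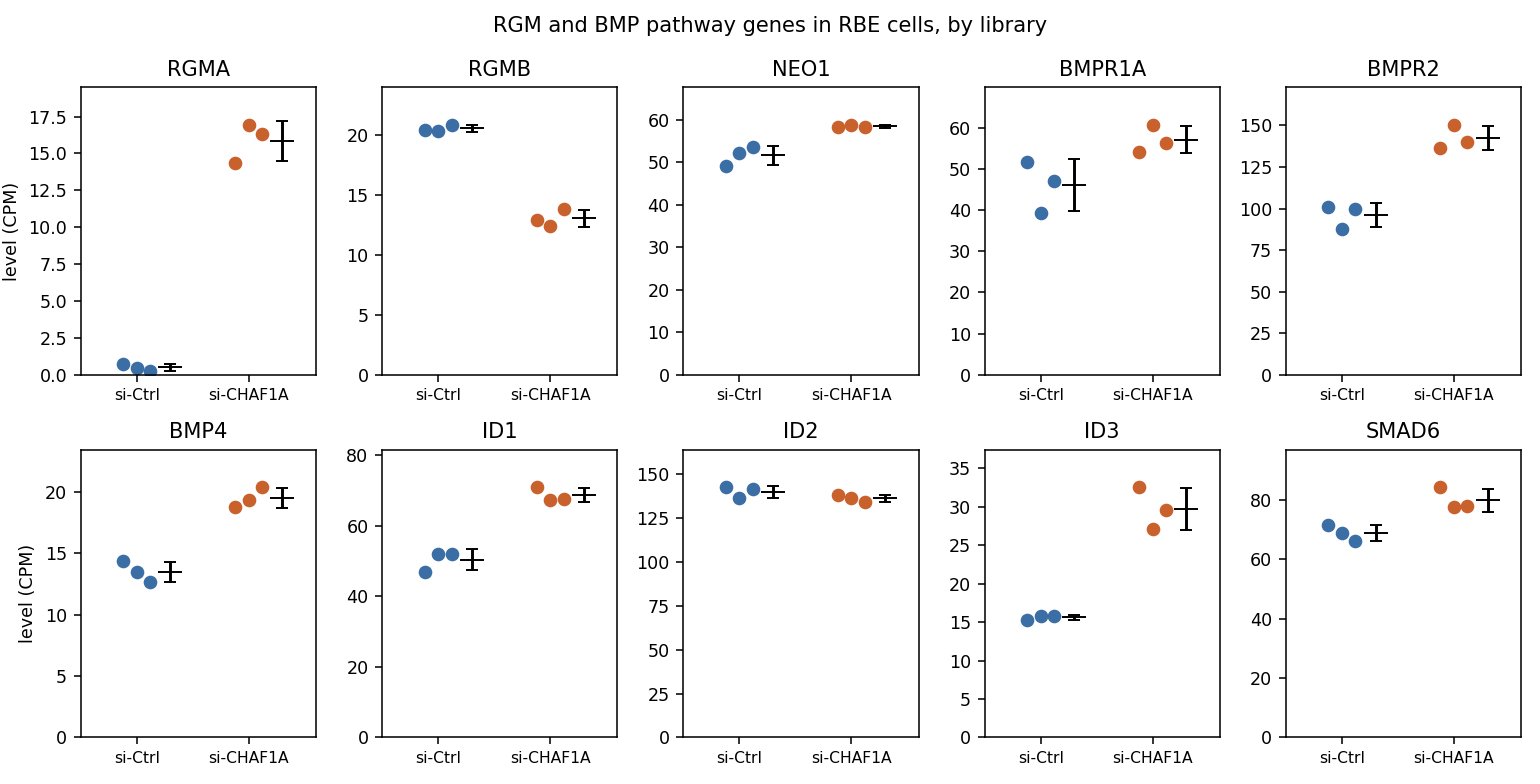
Each panel plots 1 of the 10 members, with the level in CPM on a linear axis from 0, a point for each of the 3 libraries of si-Ctrl (blue) and si-CHAF1A (orange), and the mean with its SD in black. RGMA goes from under 1 CPM to 14.3 to 16.9 CPM, RGMB is lower in all knockdown libraries, and ID2 overlaps between the groups.

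The ID proteins carry a helix-loop-helix domain without a DNA-binding part, and hold E proteins and related transcription factors away from DNA. The 3 ID members did not move alike. ID3 (ENSG00000117318, chromosome 1, 23557918 to 23559794) was at 15.2, 15.8 and 15.8 CPM in si-Ctrl and at 32.5, 27.1 and 29.6 CPM in si-CHAF1A. Its lowest knockdown library was well above its highest control, with means of 15.6 ± 0.330 and 29.7 ± 2.71 CPM (SD, n = 3 each) and a log2 fold change of 0.93 (SE 0.10).

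ID1 (ENSG00000125968, chromosome 20, 31605283 to 31606515) was at 46.8, 52.0 and 52.0 CPM in si-Ctrl and at 70.8, 67.4 and 67.6 CPM in si-CHAF1A. The groups were again apart, at 50.3 ± 3.01 and 68.6 ± 1.92 CPM, with a log2 fold change of 0.45 (SE 0.07). ID2 (ENSG00000115738, chromosome 2, 8678845 to 8684453) was at 142, 136 and 142 CPM in si-Ctrl and at 138, 137 and 134 CPM in si-CHAF1A. It was the member whose groups overlapped, with a log2 fold change of -0.04 (SE 0.06). That sign changed with upper-quartile scaling, under which it was 0.01. The antisense gene ID2-AS1, which overlaps ID2, was at 20.3 and 19.7 CPM on average (adjusted p = 0.708, edgeR).

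ID4, which is no member but completes the family, rose from 2.62, 1.77 and 2.35 CPM to 5.77, 6.72 and 4.99 CPM (a log2 change of 1.38 with an SE of 0.21, adjusted p = 7.61e-05, edgeR). Per kilobase of exon, the 4 ID genes summed to 112 to 116 CPM per kb in si-Ctrl and to 134 to 141 CPM per kb in si-CHAF1A. ID2 made up 55.8% ± 1.65 of that sum in the controls and 45.3% ± 0.750 after knockdown (SD, n = 3 each). The share of ID1 went from 35.8% ± 1.73 to 40.7% ± 0.128 and that of ID3 from 7.62% ± 0.116 to 12.1% ± 0.839. The family total was thus higher in each knockdown library, through genes other than its most abundant one.

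Of the factors that ID proteins bind, TCF3 rose 2.05-fold, from 62.9, 77.5 and 77.0 CPM to 152, 144 and 151 CPM (a log2 change of 1.04 with an SE of 0.08, adjusted p = 9.16e-08, edgeR). TCF3 encodes the E proteins E12 and E47. The other E protein genes, TCF4 (0.05, adjusted p = 0.768, edgeR) and TCF12 (-0.01, adjusted p = 0.925, edgeR), did not pass and were picked from their values.

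SMAD6 (ENSG00000137834, chromosome 15, 66702228 to 66782848), the inhibitory SMAD of the BMP branch, was at 71.6, 68.9 and 66.1 CPM in si-Ctrl and at 84.1, 77.4 and 77.7 CPM in si-CHAF1A. The groups did not overlap, at 68.8 ± 2.76 and 79.7 ± 3.80 CPM (SD, n = 3 each), with a log2 fold change of 0.21 (SE 0.07). The other inhibitory SMAD, SMAD7, went the other way, from 124 ± 11.3 to 108 ± 4.27 CPM (a log2 change of -0.20 with an SE of 0.07, adjusted p = 0.0441, edgeR). That call was lost with upper-quartile scaling, with the replicate number as a block in the fit and without si-CHAF1A 1, si-CHAF1A 2, si-CHAF1A 3 or si-Ctrl 3.

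All 8 SMAD genes were tested, and 2 were higher and 2 lower. Among the 7 that are not members 1 was higher and 2 lower, or 42.9% called beside 37.8% of all tested genes. SMAD2, which carries TGF-beta and activin signals, fell from 143, 140 and 139 CPM to 92.6, 90.0 and 92.9 CPM (a log2 change of -0.61 with an SE of 0.06, adjusted p = 1.84e-06, edgeR). SMAD9, one of the BMP SMADs, rose from 1.94 ± 0.152 to 3.37 ± 0.491 CPM (0.80, adjusted p = 0.00919, edgeR), a call lost without si-CHAF1A 3. The other BMP SMADs did not pass: SMAD1 was at 18.2 ± 2.09 and 16.1 ± 0.900 CPM (adjusted p = 0.220, edgeR) and SMAD5 at 124 ± 11.4 and 127 ± 4.78 CPM (adjusted p = 0.753, edgeR). The shared partner SMAD4 (0.11, adjusted p = 0.338, edgeR) and SMAD3 (-0.05, adjusted p = 0.532, edgeR) did not pass either. Leaving out 1 library put the number higher between 0 (without si-CHAF1A 3) and 2, being 1 without si-CHAF1A 1, si-CHAF1A 2 or si-Ctrl 3. The number lower was 1 without si-CHAF1A 1, si-CHAF1A 2, si-CHAF1A 3 or si-Ctrl 3.

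The list of 20 BMP target genes includes ID1, ID2, ID3 and SMAD6. Of its 16 tested genes 7 were higher and 1 lower, with a median log2 fold change of 0.12. Among the 12 that are not members 4 were higher and 1 lower, or 41.7% called beside 37.8% of all tested genes. Their median was -0.01. Beside ID4 and SMAD9, ATOH8, a transcription factor known as a BMP target in liver cells, rose from 5.23 ± 0.676 to 8.80 ± 1.85 CPM (0.75, SE 0.17, adjusted p = 0.00272, edgeR). BAMBI, a decoy receptor that dampens the pathway, rose from 31.4 ± 1.75 to 39.9 ± 1.67 CPM (0.34, adjusted p = 0.00361, edgeR) and is named after its value was seen. The lower gene was SMAD7, and the number lower was 0 without si-CHAF1A 1, si-CHAF1A 2 or si-Ctrl 3 and 2 without si-Ctrl 2. The iron hormone gene HAMP, a BMP target in hepatocytes, had 0 counts in the control libraries and 5 in the knockdown libraries and was not tested.

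Regulators of SMAD proteins were all tested (22), with 9 higher and 5 lower and a median of 0.04. That is 63.6% called, beside 37.8% of all tested genes. PMEPA1, which holds back TGF-beta SMADs, fell from 417 ± 15.1 to 256 ± 6.89 CPM (-0.70, SE 0.06, adjusted p = 2.88e-07, edgeR). CTDSPL, a phosphatase, fell by 0.49 and LEMD3, an inner nuclear membrane protein that binds SMADs, fell by 0.52 on the log2 scale (adjusted p = 3.31e-05 and 9.82e-05, edgeR). TOB1, an antiproliferative protein that represses BMP SMADs, rose from 47.0 ± 3.09 to 66.7 ± 2.19 CPM (0.50, adjusted p = 7.28e-05, edgeR).

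**Figure D3:**
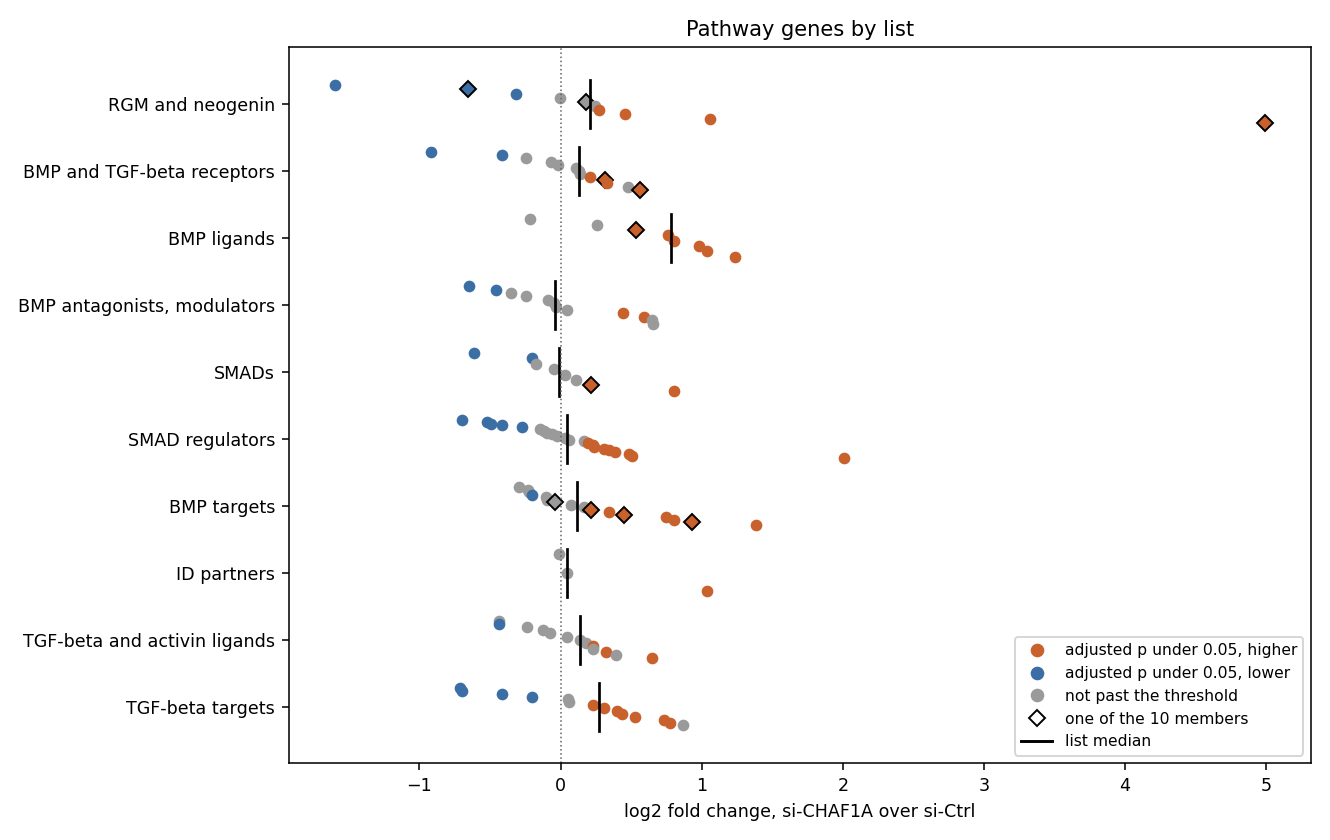
Each point is a tested gene of the list named on the left, placed by its log2 fold change of si-CHAF1A over si-Ctrl; orange and blue points passed the edgeR threshold as higher and lower, grey points did not, diamonds are the 10 members and black bars are list medians. The BMP ligand list has its median at 0.78 and no blue point, while the other lists have medians between -0.04 and 0.27, and RGMA stands alone at 4.99.

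The TGF-beta branch was measured for comparison. Of 13 tested ligand and binding protein genes 3 were higher and 1 lower, or 30.8% called beside 37.8% of all tested genes. The number higher was 6 without si-Ctrl 2. LTBP1, which stores latent TGF-beta in the matrix, rose by 0.65 (SE 0.09, adjusted p = 3.81e-05, edgeR), TGFB2 rose by 0.32 (adjusted p = 0.00114, edgeR) and LTBP2 rose by 0.23 (adjusted p = 0.0298, edgeR, a call lost with the replicate block and without any 1 library other than si-Ctrl 2), while GDF11 fell by 0.44 on the log2 scale (adjusted p = 0.00143, edgeR). Of 14 tested TGF-beta targets 7 were higher and 4 lower, or 78.6% called, with 4 higher without si-Ctrl 1 or si-Ctrl 3. FN1 (fibronectin) and CCN2 rose by 0.78 and 0.73 (adjusted p = 2.89e-07 and 1.61e-06, edgeR).

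Counted together as a description, 7 of the 10 members passed the threshold as higher and 1 as lower, beside 18.5% and 19.3% of all tested genes, and NEO1 and ID2 did not pass. With 1 library left out or another setting, the number higher lay between 5 and 8: SMAD6 was not past without si-CHAF1A 1, 2 or 3 or si-Ctrl 3, and BMPR1A was not past without si-CHAF1A 2. NEO1 was past, as higher, without si-Ctrl 2 and with upper-quartile factors (log2 fold change 0.22 against 0.18). In 9 of the 10 the groups did not overlap (8 higher, 1 lower), beside 48.2% of all tested genes. The median log2 fold change of the 10 was 0.38. All but RGMA had a difference of less than 1 on the log2 scale, and it was also the least abundant of them. Since the members were picked from this comparison, nothing follows from these counts. Over the 100 other tested genes of all the lists, each counted once, 34 were higher and 15 lower (49% either), with a median of 0.09.

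In order of length-scaled level in the control cells, ID2 came first with 63.5 ± 1.56 CPM per kb of exon and ID1 second with 40.8 ± 2.44 (SD, n = 3 each). Then came ID3 (8.68 ± 0.183), BMPR2 (8.09 ± 0.609) and SMAD6 (8.04 ± 0.322), of which BMPR2 and SMAD6 differed by less than their spread. NEO1 followed at 6.36 ± 0.278, then BMP4 (4.37 ± 0.269) and BMPR1A (4.03 ± 0.550), which differed by less than the spread of BMPR1A, and RGMB (3.07 ± 0.0402). RGMA was last at 0.0380 ± 0.0185 CPM per kb, a level that 0.591% of tested genes were below. The filter kept RGMA for its knockdown counts and dropped genes that were low in both groups, so that share depends on the filter too. After knockdown RGMA was still last, at 1.20 ± 0.103 CPM per kb, with 25.1% of tested genes below it, and the order of the 10 was the same. With the length of the longest transcript in place of all exons, 5 of the 10 kept their place in the control order, and ID2, ID1 and RGMA were still first, second and last.

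The spread between control libraries can be set beside the error that counting alone gives. For RGMA the coefficient of variation over the controls was 48.5%, where counting error is 33.2%, and over the knockdown libraries 8.61% against 6.02%. For RGMB the control spread of 1.31% was under the counting error of 5.28%. BMPR1A had the widest control spread among the better measured members, 13.6% against 3.53%, with si-Ctrl 2 lowest. The counting values cover sampling of reads only.

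The genes whose log2 CPM over the 6 libraries was most like that of RGMA were PPT1, a lysosomal enzyme (Pearson r = 0.999), VIL1, the microvillus protein villin (0.999), CRYM (0.999), ENSG00000289609 (0.999) and SEL1L3 (0.998). These correlations are over 6 libraries in 2 groups, so that a steady gap between the groups is enough for a high r: 103 of the 15844 tested genes with a name had an r of at least 0.99. Their size of change differed widely, from 0.41 for SEL1L3 and 0.63 for PPT1 to 1.37 for VIL1 and 3.82 for ENSG00000289609 on the log2 scale.

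The surroundings of RGMA were checked for a wider change. Of 24 annotated genes that start within 500 kb of its start, 4 were tested, and 2 were higher and 0 lower in the edgeR test (0 lower at an unadjusted p under 0.05, and 2 higher and 0 lower by DESeq2). Over all tested genes 18.5% were higher and 19.3% lower, and 4 genes are too few to set against these shares. CHASERR, a long non-coding RNA beside CHD2 that represses it, starts 206 kb away and rose from 17.3 ± 0.799 to 24.9 ± 2.18 CPM (0.53, SE 0.10, adjusted p = 0.000502, edgeR). CHD2, a chromatin remodeller that starts 189 kb away, rose by 0.21 on the log2 scale (adjusted p = 0.0132, edgeR), a call lost without si-CHAF1A 1, 2 or 3 or si-Ctrl 1. FAM174B (-0.08, adjusted p = 0.745, edgeR) and HMGN1P38 (-0.29, adjusted p = 0.622, edgeR) did not pass. None of the 4 had a log2 fold change over 0.53, against 4.99 for RGMA. The only annotated gene that overlaps RGMA, the pseudogene YBX2P2, had 5 counts over all 6 libraries.

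**Figure D4:**
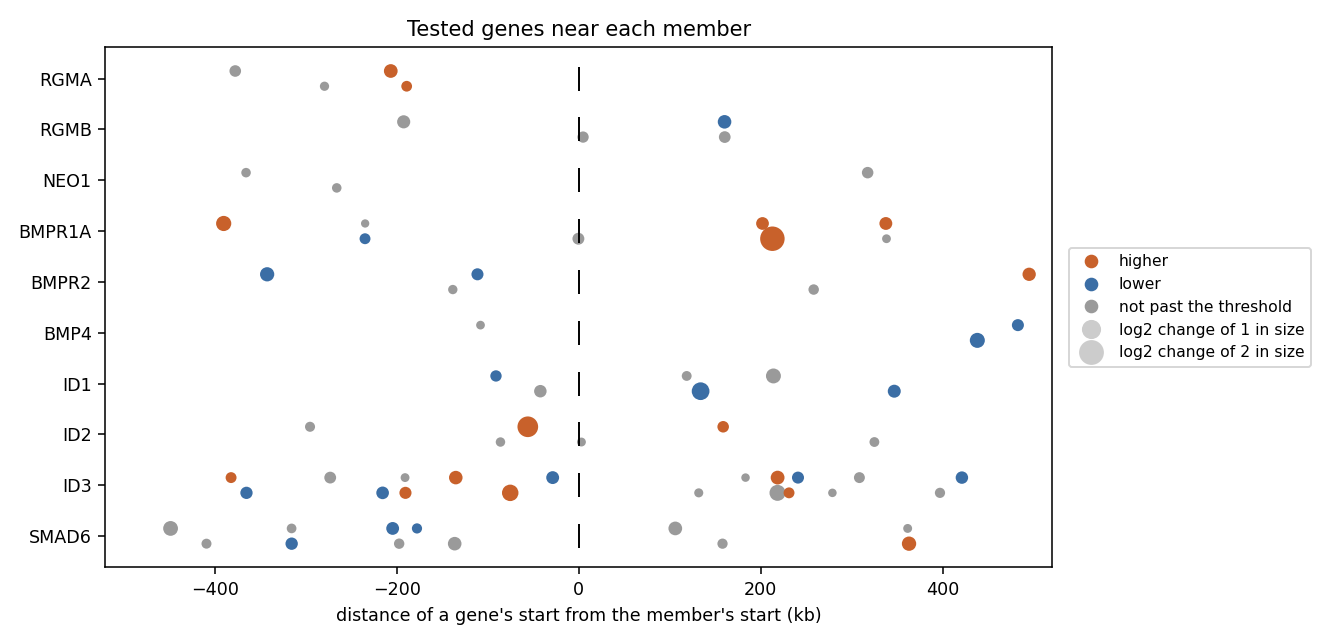
For each member (rows) the points are the tested genes that start within 500 kb, placed by the distance of their start from that of the member, with the area of a point growing with the size of the log2 fold change and colour giving the call; small vertical offsets only keep points apart. Beside RGMA, 2 small points are orange and 2 are grey.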

How the data were processed

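RNA-seq was done on 6 RBE libraries, 3 si-Ctrl and 3 si-CHAF1A, with 150-base reads per the labels. The authors deposited 1 table of raw counts per gene. Per the submitters' processing notes, fastp 0.20.1, HISAT2 2.1.0, SAMtools 1.9, featureCounts 2.0.1 and StringTie 2.1.4 were used with hg38; the sources used here do not give the annotation release, the strand setting or the treatment of multi-mapped reads. Columns marked NC were taken as si-Ctrl, a reading that the header does not state. Symbols came from a separate reference list of gene names, and positions and exon lengths from GENCODE 29, which held 58173 of the 63186 identifiers.

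Counts were fitted in edgeR 4.0.16 (R 4.3.3) with TMM factors, filterByExpr (minimum count 10, minimum total 15) and the robust quasi-likelihood test, with Benjamini-Hochberg adjustment over 15911 genes and a threshold of 0.05. The F statistic of each test gave the SE of the log2 fold change. The fit was tested on simulated data. CPM per kb is CPM divided by the length of all annotated exons. Library totals were 15643381 to 20918997 counts, so counting error matters mainly for genes such as RGMA with few counts.

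Genes were named by rule: the 10 members, CHAF1A, every tested gene of the RGM, receptor and SMAD lists, up to 4 called genes by smallest adjusted p from each other list, the 5 genes most like RGMA and the tested genes within 500 kb of it. Some genes that the rule names are not reported here. The members and lists were chosen with earlier results of these data known. Nothing says that the replicates came from separate cultures, so p-values measure the spread between these libraries, which may be technical. No 2 libraries were duplicates. Alternatives were DESeq2 1.42.0, RLE and upper-quartile factors, no filter, a prior count of 2, a replicate block, each library left out, total-scaled CPM and longest-transcript lengths. No batch or date is given in the labels, so none was tested.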

Additional observations from a re-analysis of the deposited data

How the results depend on the processing

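The replicate numbers of the titles showed no sign of pairing: deviations of same-numbered libraries correlated at -0.0859, -0.0643 and -0.00313. Those of other pairs correlated at -0.0255 to 0.0902. With 3 libraries per group these values cannot exclude that a number marks a shared culture. With a replicate block 2675 genes were higher and 2723 lower, against 2944 and 3064 without it. The block left 1 SMAD gene higher and 1 lower, and 0 BMP targets lower, and SMAD6 was no longer past the threshold. Without the filter on low counts 1 SMAD gene was higher. With upper-quartile factors 1 SMAD gene and 0 BMP targets were lower, ID2 changed sign (0.0077 against -0.038) and 3439 genes were higher against 2562 lower, where the split with TMM was 2944 against 3064. With the longest transcript as the length, 5 of 10 members kept their place in the order of control levels. Leaving out 1 library gave 1 to 4 receptors higher and 0 to 2 lower, 1 to 3 antagonists higher, 0 to 2 SMADs higher and 1 to 3 lower, 0 to 2 BMP targets lower, 2 to 6 TGF-beta and activin ligands higher, 4 to 7 TGF-beta targets higher and 1 to 2 genes near RGMA higher. It gave 2346 to 3519 genes higher and 2358 to 3709 lower over all. The causes were not tested. Of the values recomputed, 35 were classed as moved, 1 as reversed and 350 as the same. That class was wide for counts and includes the counts over all genes. With 1 library left out, 4 to 5 BMP ligands were higher against the reported 6, and 6 to 9 SMAD regulators against 9. Among the members, RGMA (4.72 to 5.37), RGMB (-0.70 to -0.62), BMPR2 (0.50 to 0.60), BMP4 (0.49 to 0.57) and ID3 (0.86 to 0.99) kept their direction with any 1 library left out. The same held for ID1 (0.40 to 0.47), BMPR1A (0.21 to 0.40), NEO1 (0.14 to 0.20), SMAD6 (0.17 to 0.24) and ID2 (-0.06 to -0.03). No scaling moved the median of all genes by as much as 0.05. Depth limits RGMA in the controls, where its fold rests on 26 counts.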

Other observations

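Tested genes near the other members moved in both directions, where 18.5% of all tested genes were higher and 19.3% lower. ID3 had 19 tested genes that start within 500 kb, of which 6 were higher and 5 lower, and SMAD6 had 12, of which 1 was higher and 3 lower. BMPR1A had 8, of which 4 were higher and 1 lower. ID1 had 6, of which 0 were higher and 3 lower in the edgeR test, among them TPX2, a spindle protein that starts 134 kb away and was at 223 ± 6.72 CPM in si-Ctrl and 105 ± 2.51 CPM in si-CHAF1A (SD, n = 3 each). TPX2 was picked after its value was seen.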
